A study of Homo sapiens with 26 samples.

Results

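The genes described here encode the factors that start and extend protein chains on cytosolic ribosomes. They were chosen by name, as the protein-coding genes whose symbols begin with EIF1 to EIF6, EEF1 or EEF2, without the kinases and methyltransferases that act on these factors, together with PABPC1 and PABPC4. This gave 62 of 20044 protein-coding genes and of 63086 genes in all. Of the 62 members, 52 were expressed highly enough to be tested, at more than 10 CPM (counts scaled by sequencing depth between libraries) in at least 12 of 24 libraries.

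In the textbook account of initiation, eIF2 brings the initiator tRNA to the small ribosomal subunit, eIF3, eIF1 and eIF1A hold that subunit open for scanning, and the eIF4 proteins bind the cap and unwind the leader. eIF5 and eIF5B then close the start codon complex and join the large subunit, after which eEF1 and eEF2 drive each round of elongation. Arsenite is an oxidative stressor known to shut down initiation through phosphorylation of eIF2 and to gather stalled mRNAs in stress granules, and many mRNAs of this machinery carry a pyrimidine tract at the cap that couples their translation to nutrient signalling.

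The RNA came from HCT116, a human colorectal carcinoma line carrying the Tet-OsTIR1-PURO cassette. All 24 test libraries were from cells labelled IGF2BP2 KO and IGF2BP3 KO that expressed a lentiviral mCherry-IGF2BP1, an RNA-binding protein, as WT or as the mutants RQ, S181E or Y396E. RQ has arginines of the first disordered linker replaced by glutamine, and S181E and Y396E put glutamate at a serine of that linker and a tyrosine of the second linker to mimic phosphorylation. Each of the 4 populations was kept in PBS (control) or in 500 µM sodium arsenite for 2 h, with 3 libraries per group from dishes grown independently, and 1 control and 1 arsenite library came from parental HCT116 cells without the knockouts or the transgene. The mutants were populations sorted in a narrow mCherry gate on knockout cells grown from sorted single cells, so each genotype stands for 1 such population, and fewer cells and less RNA per cell cannot be told apart in bulk RNA.

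Total counts ranged from 22508145 to 50834401 per library. The protein-coding share was 89.47% to 91.72% in the WT and RQ control libraries and 94.66% to 95.91% in those of S181E and Y396E. In arsenite it was 97.01% to 97.36% in WT and RQ and 98.04% to 98.27% in S181E and Y396E. The populations were thus apart in this share in both treatments, in the same split as the S181E and Y396E comparisons with WT below. What set the shares apart was not tested. The members held 2.143% to 2.461% of all counts in control and 2.702% to 2.985% in arsenite. IGF2BP1 had 10.6 to 48.0 CPM in the 24 libraries against 0.348 and 0.646 CPM in the parental pair, while IGF2BP2 transcripts remained at 62.3 to 91.3 CPM (parental 121 and 151) and IGF2BP3 transcripts at 109 to 166 CPM (parental 92.4 and 110). The epithelial markers EPCAM (309 to 492 CPM) and KRT8 (823 to 2390 CPM) were high in all 26 libraries, and PTPRC, PECAM1, ALB and CD3E had at most 1, 6, 9 and 2 counts, while COL1A1, a collagen gene of connective tissue listed with them as not expected here, had 6.55 to 11.5 CPM. Y396E arsenite replicate 3 stood apart, with counts in 13897 genes against at least 20850 in every other library. Results that rest on it are given with and without it.

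Start sites of several members are shown because the pyrimidine tract at the cap is the sequence feature this gene family is best known for. RefSeq promoters on GRCh38.p14 were matched for 50 members. PABPC1, EIF3E, EIF3H and EEF1D were among the members with no promoter entry and were not scored. Each window below has 10 bases before the annotated start and 20 from it, 5′ to 3′ on the strand of the gene, and capitals mark a run that begins with C at the annotated start and goes on with at least 4 bases that are each C or T, read on that strand only. EEF1A1, EIF4B, EEF2 and EIF4A2 carry such a run, while EIF5B, the member with the largest rise in arsenite below, and EEF1B2, one of those that fell, carry none at the annotated start.
EEF1A1, chr6:73521013-73521042, minus strand: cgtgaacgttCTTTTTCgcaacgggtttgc
EIF4B, chr12:53006446-53006475, plus strand: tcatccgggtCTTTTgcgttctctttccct
EEF2, chr19:3985444-3985473, minus strand: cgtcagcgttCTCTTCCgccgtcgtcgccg
EIF4A2, chr3:186783567-186783596, plus strand: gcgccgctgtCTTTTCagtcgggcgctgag
EIF5B, chr2:99337379-99337408, plus strand: ctgagaactcacaccatatgtgtcctgttc
EEF1B2, chr2:206159599-206159628, plus strand: aagtggccccagcctcgaggccgggcgtct
The run stood at the annotated start in 12 of the 50 matched members (24%), against 4.04% of 27305 RefSeq promoters. Those promoters were not limited to expressed or protein-coding genes, so the 2 sets are unlike. The 12 include the untested EIF2S3B, a near-identical copy of EIF2S3. Within 10 bases of the start it was found in 24 members (48%), against 33.3% of all promoters. Annotated starts can lie some bases from the start used in these cells, and no match means only that the letters are not in this window.

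Levels between genes were compared in CPM per kilobase of exon in WT control cells. EEF1B2, a subunit of the exchange factor that recharges eEF1A, was the most abundant member at 1354 ± 109 CPM per kb (SD, n = 3). PABPC1, the main cytoplasmic poly(A)-binding protein, stood at 859 ± 37.8, EIF5A at 851 ± 33.2, EEF1A1 at 799 ± 38.6 and EEF2 at 672 ± 54.3 CPM per kb. PABPC1 and EIF5A, and EIF5A and EEF1A1, differed by less than the sum of their SDs. The order depended on the length used, because the exons annotated for EEF1A1 cover 9417 bases and its canonical transcript 3512. By canonical transcript EEF1A1, the carrier of aminoacyl-tRNA, ranked first at 2143 ± 103 CPM per kb. The highest initiation factors were EIF1 at 387 ± 17.5 and EIF4G2 at 300 ± 6.22 CPM per kb of exon. The 5 subunits of eIF2B, the exchange factor that recharges eIF2, lay between 6.18 ± 0.108 (EIF2B2) and 18.4 ± 0.711 (EIF2B1), below all 3 eIF2 subunits, of which EIF2S1 was lowest at 27.3 ± 2.09 CPM per kb. EIF4G3, a scaffold of the cap-binding complex, was lowest of the tested members at 2.2 ± 0.084 CPM per kb.

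The 10 members outside the test were EIF4E3, EIF4EBP3, EIF4E1B, EIF2S3B, EIF1AY, EIF3C, EIF3CL, EIF4A1, EEF1G and EEF1E1-BLOC1S5. EIF4E3 reached at most 17.7 CPM and EIF3C 6.52 CPM in a library. EIF4A1, the main helicase of the cap-binding complex, was listed at 0 in every library, and EEF1G, a subunit of the eEF1 exchange factor, reached at most 0.0319 CPM. In the annotation used for counting, 1758 of 1758 exon bases of EIF4A1 (100%) and 1439 of 1446 of EEF1G (99.5%) also belonged to another gene on the same strand, SENP3-EIF4A1 or ENSG00000264772 for the first and ENSG00000255508 for the second, and reads falling on several genes were not counted. These zeros therefore give no level of expression. Of the tested members, EIF3L shared 41.6% of its exon bases, EEF1E1 27.3%, EIF6 19.9% and EIF1B 13.1% with another gene on its strand. EIF5A and EIF5AL1, EIF2S3 and EIF2S3B, and EIF3C and EIF3CL are near-identical copies between which reads can be lost or split, so that their values are uncertain.

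The first comparison asked how arsenite changed these mRNAs in cells with WT IGF2BP1. EIF5B, EIF3A and EIF4G1, large proteins of subunit joining, the eIF3 core and the cap-binding scaffold, rose 3.97-, 3.32- and 2.94-fold, and EEF2, the translocase of elongation, rose 2.03-fold. EIF4EBP2, an inhibitor of the cap-binding protein eIF4E, fell by 53.0% and PABPC1 by 33.3%. Calls required an adjusted p under 0.05 in edgeR's quasi-likelihood test together with a fold above 1.2 (0.26 on the log2 scale). Of the 52 members, 21 were called higher and 13 lower (65.4%), while 72.2% of all 9099 tested genes were called in this comparison, 36.3% higher and 35.9% lower. The share of members called was thus a little under the background. The members' median log2 fold change was 0.04, and that of all genes was -0.01. Scaling by library totals alone moved the median of all genes by 0.16, and 23 of the 31 members then called were higher (74.2% against 61.8% by the scaling used here). Single members ranged from 1.99 to -1.09 on the log2 scale.

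EIF5B, the GTPase that joins the large subunit, had 61.0, 61.1 and 75.6 CPM in the 3 WT control libraries and 255, 262 and 269 CPM in the 3 arsenite libraries. The groups were far apart, at a log2 fold change of 1.99 ± 0.08 (SE, adjusted p = 5.1e-17). EIF6, the other member of the joining step, which keeps the subunits apart until they are mature, had 131, 131 and 134 CPM in control and 130, 130 and 134 CPM in arsenite.

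Among the 12 tested eIF3 subunits, 5 rose, 1 fell and 6 did not pass. EIF3A, the largest subunit and a core scaffold, went from 159, 136 and 162 CPM to 518, 500 and 499 CPM (log2 fold change 1.73 ± 0.07, adjusted p = 3.48e-17). EIF3D, the subunit that can bind the cap of some mRNAs, went from 198, 165 and 212 CPM to 403, 398 and 409 CPM (1.07 ± 0.07, adjusted p = 2.21e-13). In both genes all arsenite libraries lay above all control libraries, and control replicate 2 was the lowest of the 3. The other subunits that rose were EIF3B (0.67 ± 0.06), EIF3I (0.30) and EIF3M (0.29), and EIF3J, a loosely bound subunit, fell by 0.30. EIF3G, the most abundant subunit per kilobase of exon, had 201 to 206 CPM in control and 205 to 207 CPM in arsenite. The subunits thus did not move as a unit, with log2 fold changes from -0.30 to 1.73.

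Within the cap-binding group of 9 tested genes, the scaffolds EIF4G1 and EIF4G3 and the helicases EIF4A2 and EIF4A3 rose, and the cap-binding proteins EIF4E and EIF4E2 and the scaffold EIF4G2 fell. EIF4G1, the main scaffold, went from 166, 147 and 189 CPM to 493, 488 and 494 CPM (1.56 ± 0.08, adjusted p = 4.84e-15). Its paralog EIF4G3 went from 21.9, 21.0 and 20.3 CPM to 48.1, 49.7 and 47.9 CPM (1.21 ± 0.07, adjusted p = 7.27e-14). The helicase EIF4A2 went from 217, 235 and 235 CPM to 517, 513 and 512 CPM (1.17 ± 0.05, adjusted p = 2.66e-17). No control library reached an arsenite library in any of these 3 genes. EIF4A3, the helicase of the exon junction complex, also rose (0.83 ± 0.05). EIF4E, the cap-binding protein itself, went from 62.4, 63.2 and 62.2 CPM to 47.7, 52.0 and 50.5 CPM (-0.32 ± 0.05, adjusted p = 1.36e-06), and its relative EIF4E2, a cap-binding repressor, fell by 0.43. EIF4G2, a scaffold that lacks the eIF4E-binding site and is the most abundant gene of the group per kilobase, fell from 1268 to 1321 CPM in control to 1027 to 1049 CPM in arsenite (-0.31). EIF4B and EIF4H, which aid the helicase, stood at 0.09 and -0.01 and did not pass.

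The inhibitors of eIF4E fell. EIF4EBP2 had 185, 183 and 187 CPM in control and 88.9, 86.7 and 85.3 CPM in arsenite (-1.09 ± 0.05, adjusted p = 1.09e-15), the largest fall among the tested members. EIF4EBP1, its paralog under the control of mTOR, had 173, 193 and 166 CPM in control and 107, 110 and 110 CPM in arsenite (-0.70 ± 0.09, adjusted p = 6.76e-08). The transporter EIF4ENIF1, which carries eIF4E into the nucleus, rose from 16.7 to 17.2 CPM to 26.3 to 27.8 CPM (0.67 ± 0.13, adjusted p = 6.15e-05). So in this group of 3, the transporter moved against the inhibitors.

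Genes of initiator tRNA delivery rose or did not pass in WT. EIF2D of this group went down, at -0.26, and did not pass. In Y396E cells EIF2D was called lower at -0.38, and at -0.27 without Y396E arsenite replicate 3. In eIF2, EIF2S1 (the alpha subunit that stress kinases phosphorylate) had 140, 122 and 140 CPM in control and 185, 194 and 194 CPM in arsenite (0.51 ± 0.06, adjusted p = 1.5e-08), and EIF2S3, the gamma subunit, rose by 0.39. EIF2S2, the beta subunit and the most abundant of the group per kilobase, had 189, 193 and 199 CPM in control and 195, 205 and 199 CPM in arsenite and did not pass. The 2 ranges overlapped. EIF2A, a separate protein that can deliver initiator tRNA without eIF2 and whose mRNA the study used as a model RNA, had 137, 138 and 143 CPM in control and 179, 184 and 179 CPM in arsenite (0.38 ± 0.06, adjusted p = 4.24e-06). Of the 5 eIF2B subunits, 4 rose: EIF2B4 by 1.09, EIF2B5 by 0.70, EIF2B2 by 0.58 and EIF2B3 by 0.49, while EIF2B1, the alpha subunit of eIF2B, stood at -0.07 and was the most abundant of the 5.

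In the scanning group of 5, EIF5, which activates the GTPase of eIF2, rose from 229, 231 and 242 CPM to 304, 295 and 300 CPM (0.35 ± 0.04, adjusted p = 6.91e-09). EIF1AD, named for its domain like that of eIF1A, fell from 72.4, 74.1 and 75.2 CPM to 40.8, 38.3 and 38.8 CPM (-0.91 ± 0.06, adjusted p = 2.42e-13). EIF1AX, which encodes eIF1A, fell by 0.48. EIF1, the start codon gatekeeper, had 915, 938 and 859 CPM in control and 885, 885 and 882 CPM in arsenite, a difference inside the control range.

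The elongation group, which takes in EEF1E1 by its symbol, split as well, with 2 of 9 higher and 4 lower. EEF2 went from 2102, 1960 and 2301 CPM to 4296, 4231 and 4360 CPM (1.02 ± 0.05, adjusted p = 1.72e-15). EEF1A2, the eEF1A form of muscle and neurons, rose from 327 to 369 CPM to 650 to 661 CPM (0.90 ± 0.05), whereas EEF1A1 had 7109, 7705 and 7766 CPM in control and 7342, 7167 and 7070 CPM in arsenite (-0.07 ± 0.04, adjusted p = 0.157). EEF1B2 went from 1162, 1342 and 1183 CPM to 837, 861 and 826 CPM (-0.55 ± 0.05, adjusted p = 7.06e-11). EIF5A2, the second gene for the factor that relieves stalls at proline codons, went from 23.7, 22.3 and 21.6 CPM to 12.5, 12.8 and 12.3 CPM (-0.85 ± 0.13, adjusted p = 2.05e-06). EIF5A and EIF5AL1 fell by 0.35 and 0.42, with the uncertainty over shared reads given above.

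PABPC1 fell from 3942, 4296 and 4196 CPM to 2754, 2756 and 2780 CPM (-0.58 ± 0.04, adjusted p = 3.44e-12). PABPC4, its inducible paralog, had 381, 372 and 405 CPM in control and 439, 443 and 445 CPM in arsenite, a small increase in every library whose fold stayed under the threshold (0.20, adjusted p = 0.000196). The plot of the 5 largest rises and falls by library shows how small the spread between libraries was beside these changes.

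**Figure D1:**
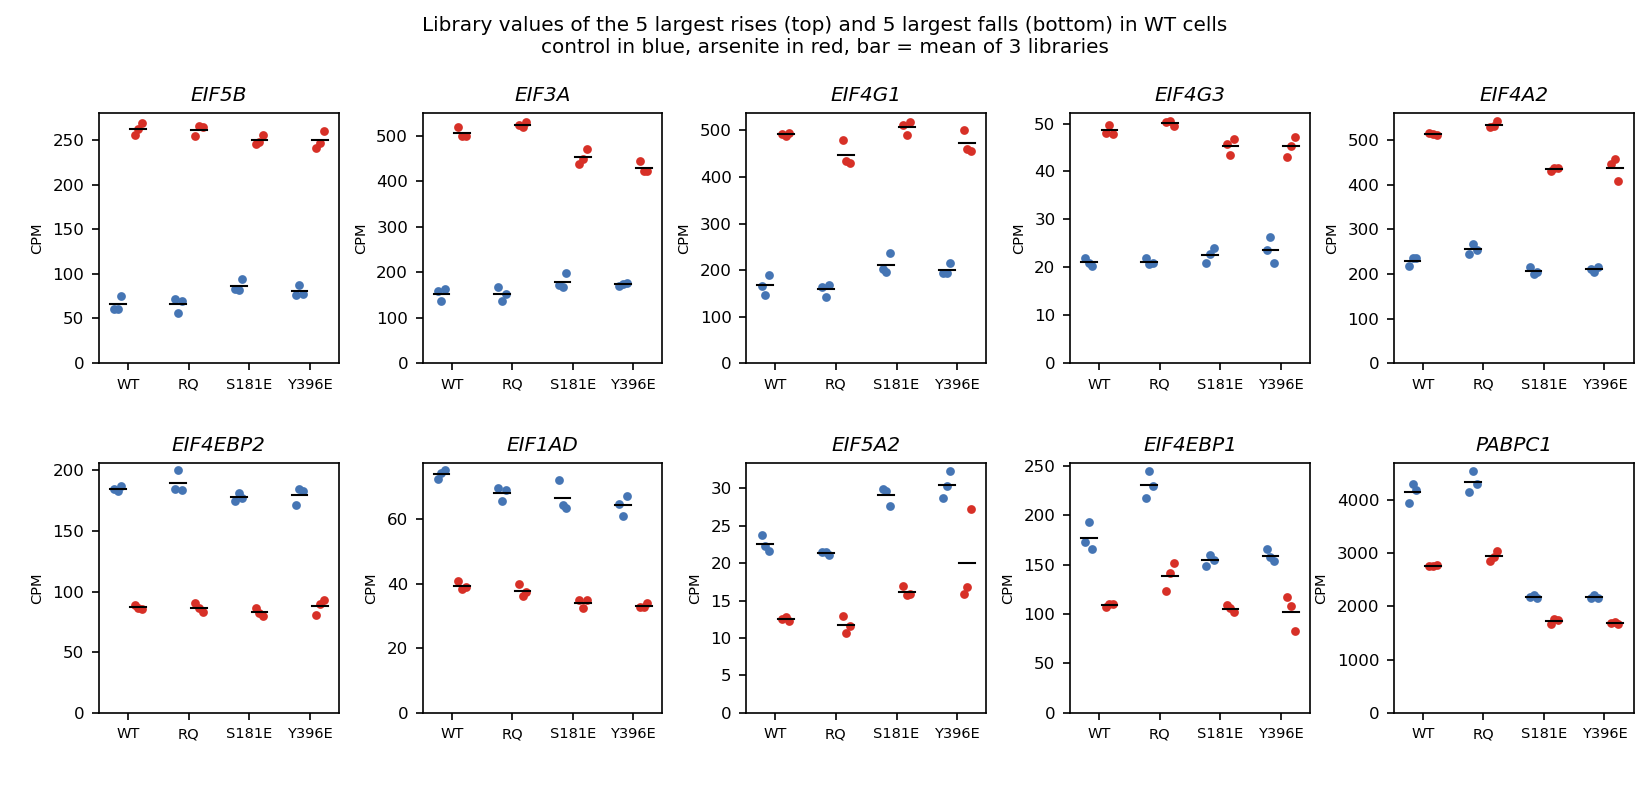
CPM in each library (points, 3 per group) and group mean (bar) in the WT, RQ, S181E and Y396E populations for the 5 members with the largest rise (upper panels) and the 5 with the largest fall (lower panels) in WT cells, with control in blue and arsenite in red and each axis starting at 0. EIF5B lies between 56.3 and 94.2 CPM in the control libraries and between 241 and 269 CPM in the arsenite libraries, and Y396E arsenite replicate 3 is the high point at 27.3 CPM in EIF5A2.

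Most members called in WT were also called in each of the other populations, at close to the rate of all genes. With RQ, 22 members were called higher and 13 lower, where 72.9% of all genes were called (37.1% higher and 35.8% lower). With S181E 17 rose and 14 fell (background 65.3%, 32.0% higher and 33.3% lower), and with Y396E 17 rose and 13 fell (background 65.8%, 32.9% in each direction). WT and RQ shared 33 of these members (97.1% of the WT calls and 94.3% of the RQ calls), WT and S181E shared 29 (85.3% and 93.5%) and WT and Y396E shared 28 (82.4% and 93.3%), all in the same direction and from separate libraries. Over all tested genes the shares with a call in the same direction were 95.4% and 94.4% for RQ, 83.0% and 91.6% for S181E, and 81.0% and 88.7% for Y396E. In all 4 populations, 27 members were called in 1 direction, 15 higher and 12 lower (51.9% of the tested members, against 54.2% of all tested genes). The 34 members called in WT also moved the same way between the 2 parental libraries, as did 98.8% of all genes called in WT, and that pair has no replicates. EIF5B, for example, had 85.1 CPM in the parental control and 314 CPM in the parental arsenite library, and PABPC1 had 4198 and 2794 CPM.

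**Figure D2:**
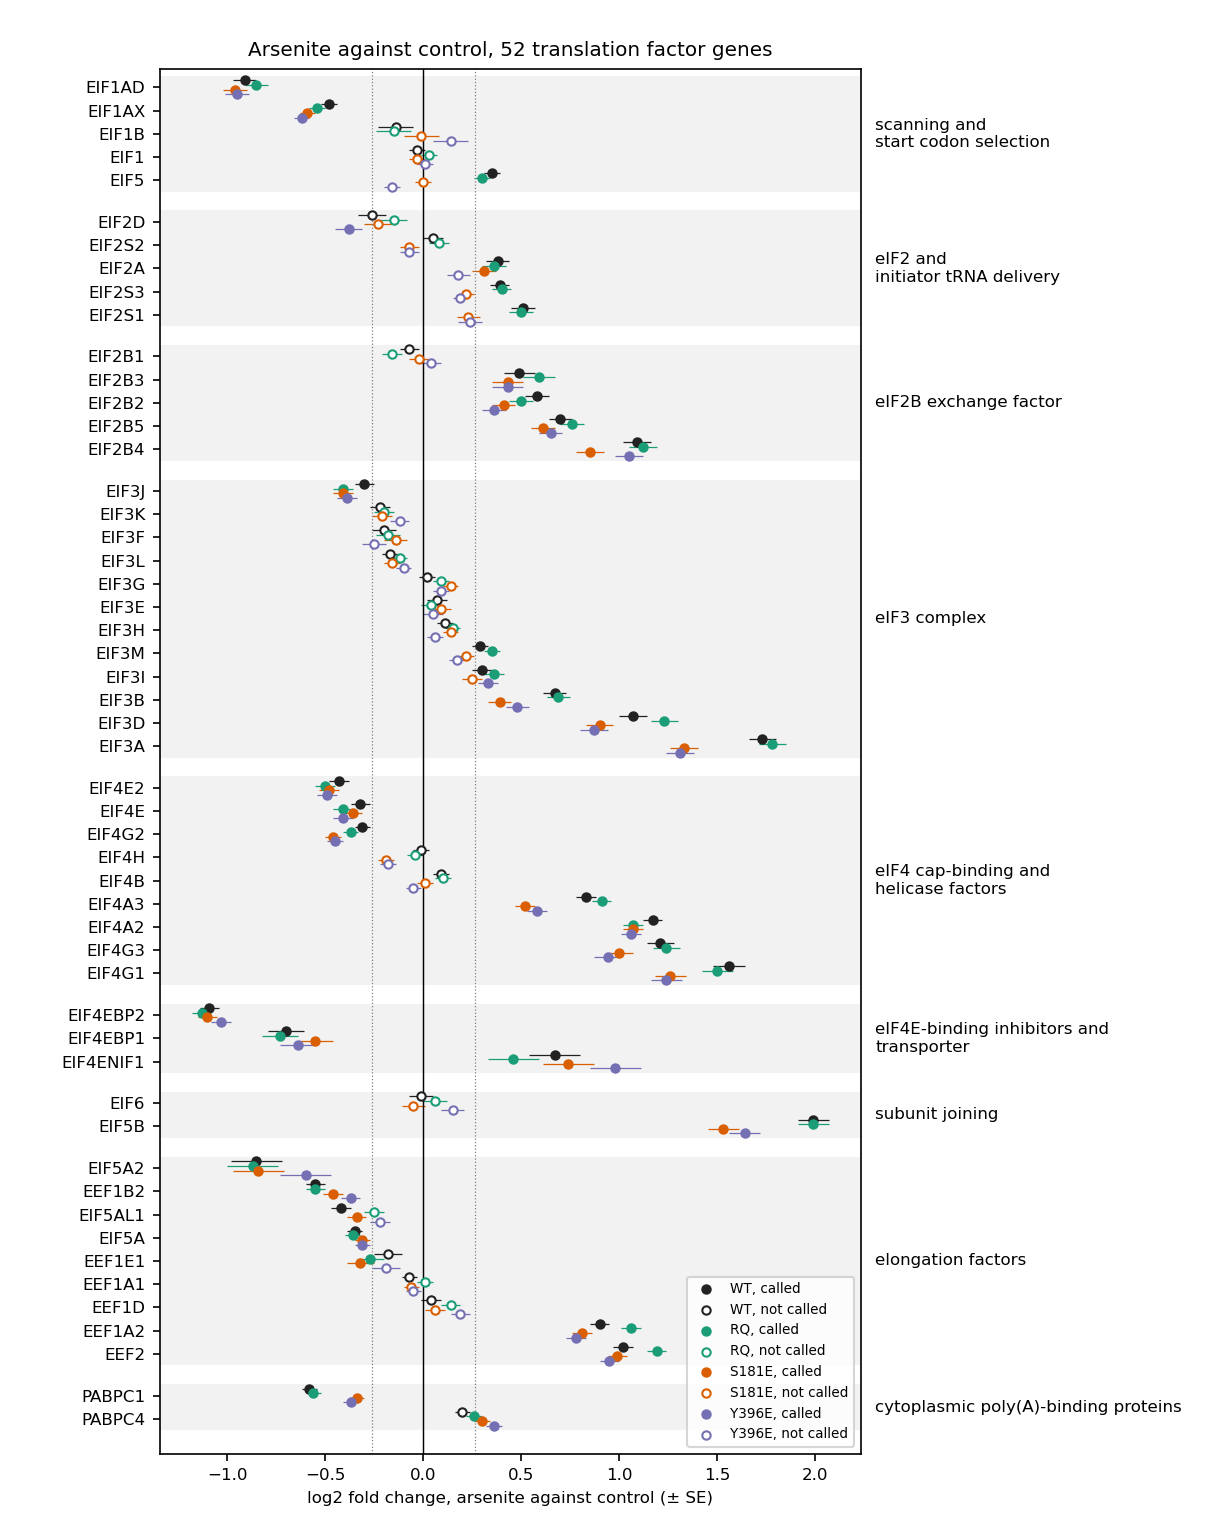
Log2 fold change of arsenite against control (horizontal axis, bars are SE) for the 52 tested members, by role, in WT, RQ, S181E and Y396E cells. Filled points passed the test and dotted lines mark the fold threshold, and the largest rises are those of EIF5B (1.99 in WT) and EIF3A (1.73) and the largest fall that of EIF4EBP2 (-1.09).

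Some members were sensitive to a single library. EIF2A rose in RQ (0.36) and S181E (0.31), but in Y396E, with 145, 142 and 139 CPM in control and 172, 177 and 136 CPM in arsenite, its change of 0.18 did not pass. The arsenite value of 136 CPM came from replicate 3, and without that library EIF2A passed at 0.30. EIF5A2 in Y396E had 15.9, 16.8 and 27.3 CPM in arsenite, and its fall of 0.60 became 0.89 without replicate 3. EIF4ENIF1 had 21.7 CPM there in replicate 1 and 38.5 CPM in replicate 3, and its rise of 0.98 became 0.69 without it.

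Members with long coding sequences tended to be those that rose. Across the 52 tested members the arsenite change in WT went with the coding length of the canonical transcript at Spearman's rho 0.68 (Pearson's r 0.74 with log2 length), and across all 9099 genes at 0.55. These are correlations across genes that share the same 6 libraries, and genes are not independent replicates. The members' rho was 0.69 with RQ, 0.68 with S181E and 0.65 with Y396E. With the length of the whole canonical transcript it was 0.21, and with mean CPM 0.10. The median coding length was 1569 bases in the members called higher, 495 bases in those called lower and 1027.5 bases in those not called.

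Set beside genes of like coding length, the members kept part of their spread. In the decile of tested genes with the shortest coding sequences (75 to 537 bases, 10 members) the median change was -0.64 and 87.1% were called lower, and in the decile with the longest (3498 to 23454 bases, 4 members) it was 0.62 and 69.0% were called higher. EIF5B lay 1.37 above the median of its decile, EIF4A2 1.2, EIF3A 1.11, EIF4G1 0.94 and EIF2B4 0.93. PABPC1 lay 0.86 below its own (a difference of -0.86), EIF4G2 0.78 (-0.78) and EIF2D 0.54 (-0.54). EIF4EBP2 differed by -0.45 from the median of its decile, in which most genes fell, and its -1.09 lay below the lower quartile of that decile (-0.84). What coding length stands for in these libraries was not tested.

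**Figure D3:**
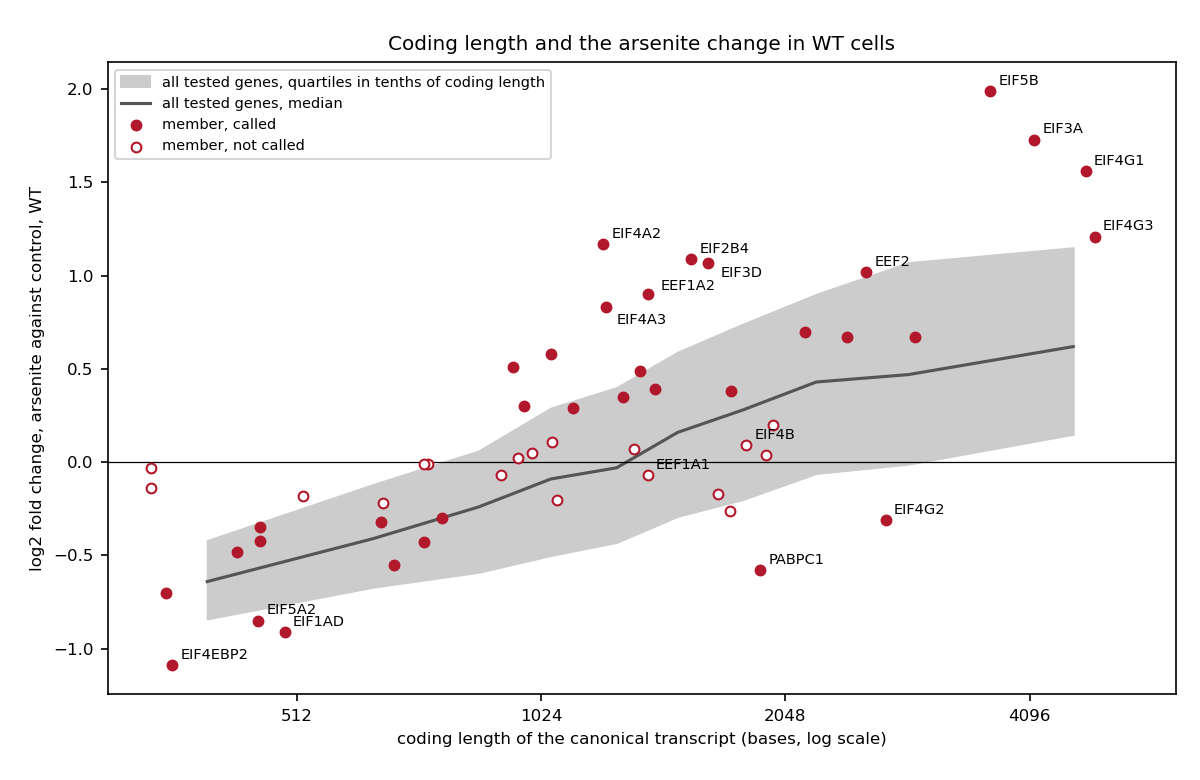
Log2 fold change of arsenite against control in WT cells (vertical axis) against the coding length of the canonical transcript in bases (horizontal log axis), for the 52 tested members (points, filled when called) and for all 9099 tested genes in deciles of coding length (line, median, and shading, quartiles). EIF5B, EIF3A and EIF4G1 lie above the upper quartile of the longest decile, and PABPC1 and EIF4G2 lie below the lower quartile at their length.

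The run of C and pyrimidines at the annotated start was also set beside the arsenite change. Of the 11 tested members with this run, such as EEF1A1, EEF2, EIF4A2 and EIF4B shown above, 6 rose and 0 fell in WT by edgeR (median 0.29). Of the 30 tested and matched members without it, 13 rose and 11 fell (median -0.02). PABPC1, which fell in WT (-0.58), had no promoter entry and is in neither set, nor are EIF3E, EIF3H and EEF1D. EEF1B2, which also fell (-0.55), is in the set without the run. The 0 that fell therefore holds for the matched members only. Over all 9099 tested genes 36.3% were called higher and 35.9% lower. These sets were not matched for coding length, and a link between the run and the change was not tested. For the wider reference of that sequence class, 74 of 78 tested cytosolic ribosomal protein genes fell in WT (median -0.68). In the decile of all tested genes with the shortest coding sequences (75 to 537 bases), 87.1% were called lower (median -0.64). How far coding length went with the fall of the ribosomal protein genes was not tested. The 9 tested members of the class known from textbooks as its translation factors held 1 that rose and 2 that fell (median 0.04). Those 9 members were EEF1A1, EEF1B2, EEF1D, EEF2, EIF3E, EIF3F, EIF3H, EIF4B and PABPC1.

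The next comparisons asked whether the IGF2BP1 mutants changed these mRNAs without stress, each against the same 3 WT control libraries. The 4 members on chromosome 8 from HGSNAT (start 43140464, just before the centromere) to the end of the long arm are given first and apart, because the tested genes of that stretch were lower as a whole in S181E and Y396E. These were PABPC1 (8, 100702051 to 100722762 in hg38), EIF3E (108162787 to 108443496), EIF3H (116642130 to 116766255) and EEF1D (143579697 to 143597744), all on the minus strand. Among the other 203 tested genes of the stretch, 178 were lower and 2 higher in S181E control cells (median -0.62) and 184 lower and 2 higher in Y396E control cells (median -0.60), against 2 lower and 3 higher in RQ control cells (median 0.02).

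PABPC1 had 3942, 4296 and 4196 CPM in WT, 4142, 4551 and 4300 CPM in RQ, 2170, 2221 and 2161 CPM in S181E and 2155, 2216 and 2153 CPM in Y396E control cells. The S181E and Y396E libraries lay far under those of WT and RQ, at log2 fold changes against WT of -0.92 ± 0.04 (adjusted p = 1.48e-14) and -0.93 ± 0.04 (adjusted p = 1.37e-14). EIF3E, an eIF3 subunit, had 586, 606 and 604 CPM in WT, 395, 390 and 370 CPM in S181E and 388 to 412 CPM in Y396E (-0.64 and -0.59). EIF3H, another eIF3 subunit, had 485, 497 and 497 CPM in WT, 323, 326 and 318 CPM in S181E and 322, 337 and 355 CPM in Y396E (-0.61 and -0.54). The differences of EIF3E and EIF3H were near the median of the stretch and that of PABPC1 was larger. EEF1D, the member nearest the end of the chromosome, had 414, 412 and 427 CPM in WT, 372, 366 and 391 CPM in S181E and 393, 354 and 392 CPM in Y396E, and its -0.15 and -0.14 did not pass. EIF4EBP1, on the same chromosome but before the limit (38030534 to 38060365), stood at -0.20 and -0.15 and did not pass either. The part that the state of the stretch had in the lower levels of these members was not tested.

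**Figure D4:**
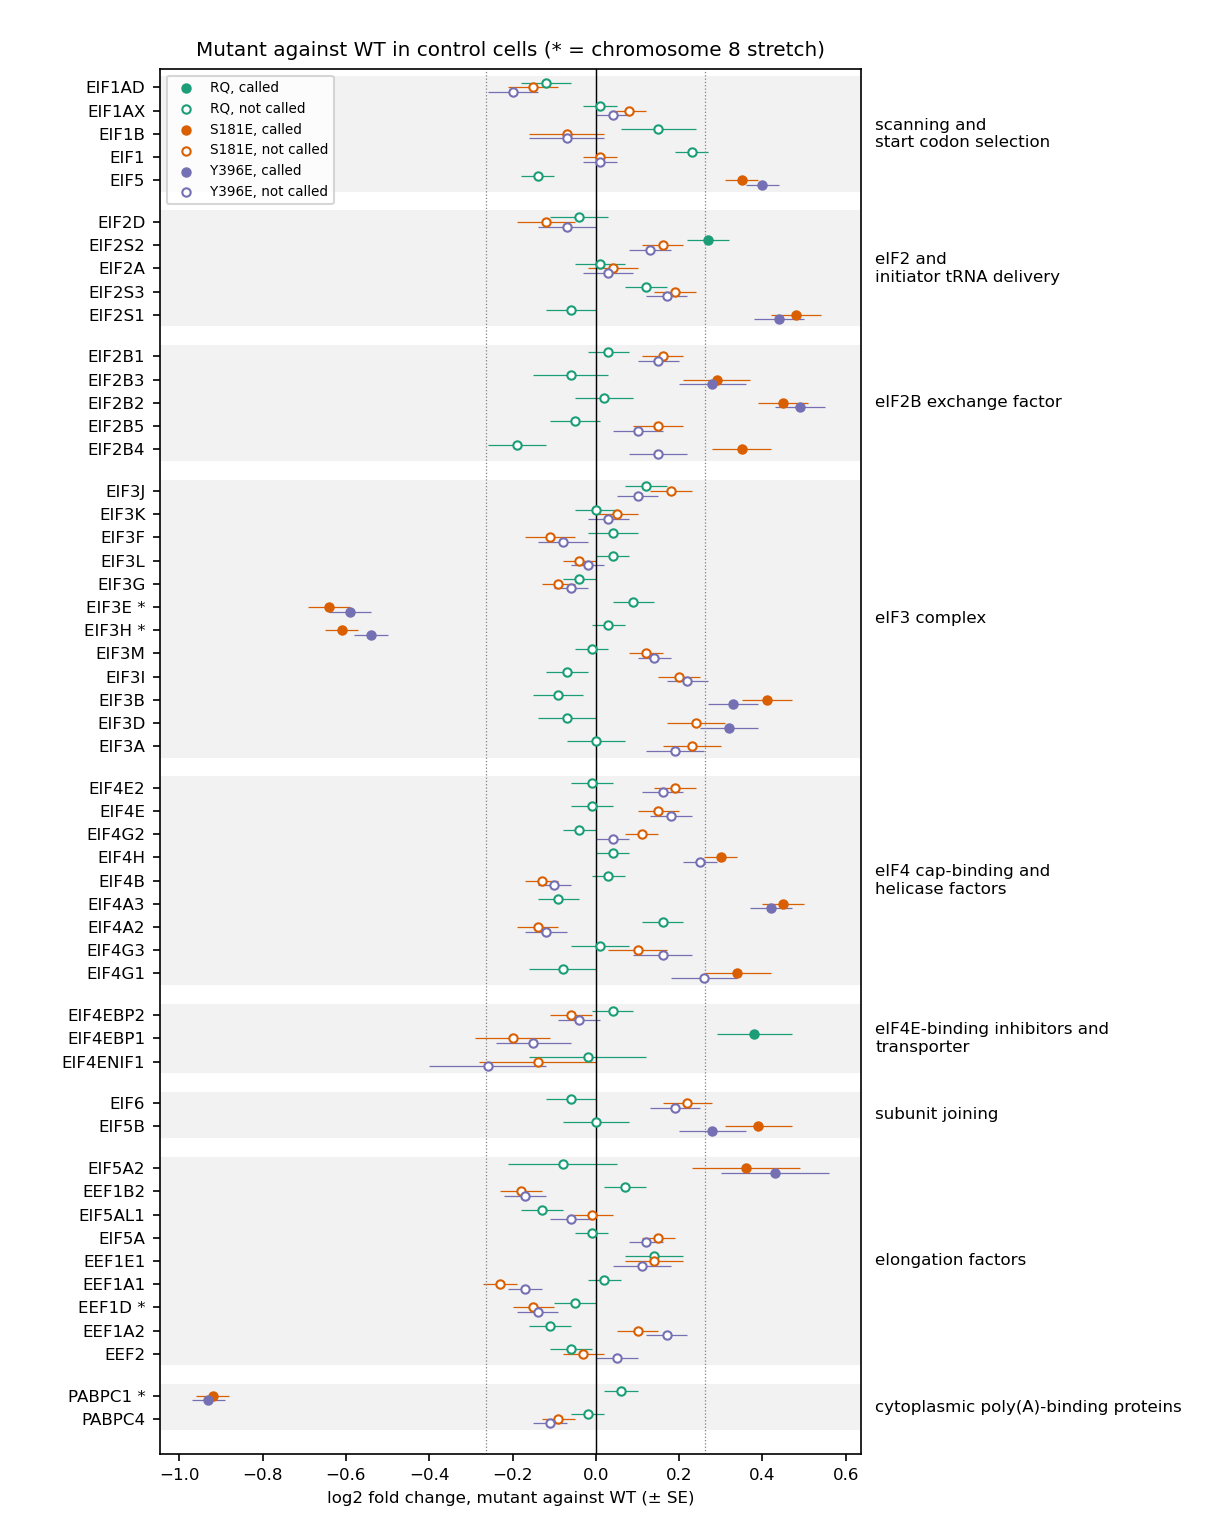
Log2 fold change of RQ, S181E and Y396E against WT in control cells (horizontal axis, bars are SE) for the 52 tested members, by role, with filled points for those that passed the test and an asterisk for the 4 members of the chromosome 8 stretch. PABPC1 is lowest at -0.92 in S181E and -0.93 in Y396E, the other filled points to the left are EIF3E and EIF3H, and every other member that passed is to the right.

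Off this stretch, each member called in S181E or Y396E control cells was higher than in WT, 11 of 48 in S181E and 9 of 48 in Y396E. With the stretch included, the members' counts were 11 higher and 3 lower in S181E, where 31.1% of all genes were called (15.7% higher and 15.4% lower), and 9 higher and 3 lower in Y396E (background 28.6%, 14.5% higher and 14.2% lower). Their medians were 0.11 and 0.10, against 0.02 and 0.01 in all genes. Without WT control replicate 2 the counts were 10 in S181E and 9 in Y396E, and without WT control replicate 1 the count in S181E was 17. Scaling by library totals alone raised the median of all genes by 0.16 in S181E and 0.13 in Y396E, and then 26 of 29 and 22 of 25 members called were higher (89.7% and 88.0%, against 78.6% and 75%).

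EIF2S1 of eIF2, EIF2B2 of eIF2B and EIF4A3 of the eIF4A family had the largest increases in S181E. Not all of their relatives followed, as EIF2S2, EIF2S3, EIF2B1 and EIF2B5 did not pass in S181E. EIF4A2 had a mean of 229 CPM in WT and 207 CPM in S181E control cells and did not pass either. EIF2S1 had 140, 122 and 140 CPM in WT, 187, 187 and 189 CPM in S181E and 171 to 194 CPM in Y396E, so that no WT library reached a library of either mutant. Its log2 fold changes were 0.48 ± 0.06 (adjusted p = 2.97e-07) and 0.44 ± 0.06 (adjusted p = 1.58e-06). EIF2B2, the beta subunit of eIF2B, had 27.0, 26.1 and 26.7 CPM in WT, 36.2, 36.8 and 36.0 CPM in S181E and 38.0, 34.9 and 38.9 CPM in Y396E, at 0.45 ± 0.06 and 0.49 ± 0.06. EIF4A3 had 209, 179 and 201 CPM in WT, 268, 263 and 273 CPM in S181E and 251, 258 and 277 CPM in Y396E, at 0.45 ± 0.05 and 0.42 ± 0.05. These 3 genes were the largest rises of S181E, and none of their WT libraries overlapped with those of the mutants. EIF5 stood at 0.35 ± 0.04 and 0.40 ± 0.04, and EIF5A2 at 0.36 ± 0.13 and 0.43 ± 0.13, from 21.6 to 23.7 CPM in WT to 27.6 to 29.9 CPM in S181E and 28.7 to 32.3 CPM in Y396E. EIF3B, EIF5B and EIF2B3 also passed in both, EIF4G1, EIF2B4 and EIF4H passed in S181E, and EIF3D passed in Y396E. Whether these last 4 genes differed between the mutants was not tested.

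Several of the smaller rises lost their call without WT control replicate 2, most of them by a fold that came to lie just under the threshold. In S181E these were EIF2B3 (0.24), EIF4G1 (0.26), EIF4H (0.25) and EIF5A2, which stood at 0.36 with adjusted p = 0.0543 by edgeR. In Y396E they were EIF2B3 (0.23), EIF5B (0.23) and EIF3D (0.22). EIF4H and EIF3D lost the call in 1 of the 24 fits that each left out 1 library, and the others in 2 to 4. That library was also the lowest of the WT controls in EIF3A, EIF3D, EIF4G1 and EIF2S1, and RQ control replicate 2 was the lowest of the RQ controls in the same genes. What the replicate 2 dishes shared was not tested.

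In RQ control cells 2 of 52 members passed, both higher, against 1.43% of all genes (1.0% higher and 0.429% lower). DESeq2 also called 2, and 11 members had an unadjusted p under 0.05 in edgeR's test. Here and below, counts at an unadjusted p are given without the share over all genes and do not set any group of genes apart. EIF4EBP1 had 218, 245 and 230 CPM in RQ against 173, 193 and 166 CPM in WT (0.38 ± 0.09, adjusted p = 0.0152), and EIF2S2 had 234, 226 and 242 CPM against 189, 193 and 199 CPM (0.27 ± 0.05, adjusted p = 0.00111). All RQ libraries lay above all WT libraries in both genes. No member passed without WT control replicate 1, and 1 passed without WT control replicate 3, RQ control replicate 2 or RQ control replicate 3. EIF1 had 1075, 1091 and 1018 CPM in RQ and 915, 938 and 859 CPM in WT, an increase of 0.23 whose fold was under the threshold.

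The mutants were then set against WT in arsenite, with the same 3 WT arsenite libraries each time. RQ against WT gave 3 higher and 0 lower by edgeR (background 1.52%, 1.36% higher and 0.154% lower), and DESeq2 also called 3. These were EIF4EBP1 at 123, 142 and 152 CPM against 107, 110 and 110 CPM (0.35 ± 0.09, adjusted p = 0.0288), EIF2S2 at 232, 253 and 258 CPM against 195, 205 and 199 CPM (0.31 ± 0.05, adjusted p = 0.000102) and EIF1 at 1035, 1094 and 1111 CPM against 885, 885 and 882 CPM (0.29 ± 0.04, adjusted p = 3.12e-05). Every RQ library of the 3 genes was above every WT library. The call of EIF4EBP1 was lost in 5 of 24 fits without 1 library (0.28 to 0.36, adjusted p = 0.0957 to 0.336 by edgeR), with the smallest value without RQ arsenite replicate 3. The first 2 of them were also higher in RQ control cells, which are separate libraries. Scaling by totals alone left 0 of these calls by edgeR.

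S181E against WT in arsenite gave 2 members higher and 3 lower (background 13.7%, 5.32% higher and 8.42% lower), and Y396E gave 3 higher and 3 lower (background 21.7%, 9.77% higher and 11.9% lower). The 3 lower ones in each were PABPC1, EIF3E and EIF3H of the chromosome 8 stretch. PABPC1 had 1676, 1765 and 1744 CPM in S181E and 1685, 1716 and 1661 CPM in Y396E against 2754, 2756 and 2780 CPM in WT (-0.68 and -0.71), and EIF3E and EIF3H stood between -0.59 and -0.61 in both mutants. EIF2B2 was again higher, at 49.9, 48.4 and 46.3 CPM in S181E and 49.5, 50.2 and 43.5 CPM in Y396E against 41.9, 38.6 and 38.6 CPM in WT (0.28 and 0.27). Both values were near the threshold, and the call was lost in 3 of 24 fits without 1 library in S181E (each at 0.26) and in 4 in Y396E (0.23 to 0.25), and in Y396E also with only the groups compared in edgeR's fit (0.27, adjusted p = 0.0575). EIF5A2 was higher at 17.0, 15.7 and 15.9 CPM in S181E against 12.5, 12.8 and 12.3 CPM in WT (0.37 ± 0.13, adjusted p = 0.0447), a call that was lost in 14 of 24 fits without 1 library, and the count of S181E was 3 without S181E arsenite replicate 1, WT arsenite replicate 2 or WT arsenite replicate 3. In Y396E its 0.68 became 0.39 without Y396E arsenite replicate 3. EIF6 had 162, 148 and 192 CPM in Y396E and 130, 130 and 134 CPM in WT (0.35), and without that replicate its 0.24 did not pass. Without Y396E arsenite replicate 2 the count of Y396E was 9 in place of 6.

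The last comparison asked whether the arsenite response itself differed from that of WT, tested as the interaction of population and treatment. By edgeR 0 of 52 members differed in RQ, where 0.22% of all genes did. DESeq2 also gave 0, and 3 members had an unadjusted p under 0.05. In S181E 6 members had a lower response than WT and 0 a higher one (background 16.4%, 9.41% lower and 6.98% higher), and in Y396E 5 and 0 (background 21.5%, 11.1% lower and 10.3% higher). The members' shares were thus near the background for a lower response. Their medians were -0.05 and -0.06, against -0.03 and -0.02 in all genes. The counts moved with single libraries, to 3 in S181E and 2 in Y396E without WT control replicate 2, to 8 in both without WT control replicate 3, and to 2 and 3 in Y396E without WT arsenite replicate 3 or 2. Without Y396E arsenite replicate 3, Y396E gave 7, with EIF4A3 (-0.27) and EIF4G3 (-0.29) added.

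EIF5 had the largest difference in Y396E. Its control level was 229, 231 and 242 CPM in WT, 289, 308 and 296 CPM in S181E and 303, 316 and 312 CPM in Y396E, and its arsenite level was 304, 295 and 300 CPM in WT, 298, 294 and 302 CPM in S181E and 281, 288 and 265 CPM in Y396E. The rise seen in WT (0.35) was 0.00 in S181E and -0.16 in Y396E, at differences of -0.35 ± 0.05 (adjusted p = 0.000187) and -0.51 ± 0.05 (adjusted p = 1.33e-06). EIF3A rose by 1.73 in WT, 1.33 in S181E and 1.31 in Y396E. Its arsenite libraries had 437, 448 and 471 CPM in S181E and 444, 423 and 422 CPM in Y396E, all below the 499 to 518 CPM of WT, at differences of -0.39 ± 0.09 (adjusted p = 0.00614) and -0.42 ± 0.09 (adjusted p = 0.00298). The calls for EIF5 and EIF3A were kept without each of the 24 libraries in turn.

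EIF5B rose by 1.53 in S181E and 1.64 in Y396E, against 1.99 in WT, at differences of -0.46 ± 0.11 (adjusted p = 0.0061) and -0.35 ± 0.11 (adjusted p = 0.0229). Its arsenite libraries overlapped, at 245, 248 and 256 CPM in S181E and 241, 247 and 260 CPM in Y396E against 255, 262 and 269 CPM in WT, while its S181E and Y396E control libraries, at 76.1 to 94.2 CPM, lay above the 61.0 to 75.6 CPM of WT. EIF2S1 differed by -0.28 and -0.27, EIF4A3 (-0.32) and EIF3B (-0.28) in S181E and EIF4G1 (-0.32) in Y396E. In these genes too the mutants' control libraries were above those of WT, as given for EIF2S1 and EIF4A3 in the control comparison. For EIF3B the 3 S181E control libraries had 402 to 447 CPM and those of WT 291 to 336 CPM, and for EIF4G1 the 3 Y396E control libraries had 193, 194 and 215 CPM and those of WT 166, 147 and 189 CPM. The calls of these genes were less stable than those of EIF5 and EIF3A. In fits that each left out 1 of the 24 libraries, the call of EIF2S1 was lost in 2 for S181E and 5 for Y396E, that of EIF3B in 3, that of EIF4A3 in 1, that of EIF4G1 in 7 and that of EIF5B in Y396E in 4. PABPC1 had a smaller fall in both mutants, by 0.34 in S181E and 0.37 in Y396E against 0.58 in WT, at differences of 0.25 and 0.22 whose fold was under the threshold.

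**Figure D5:**
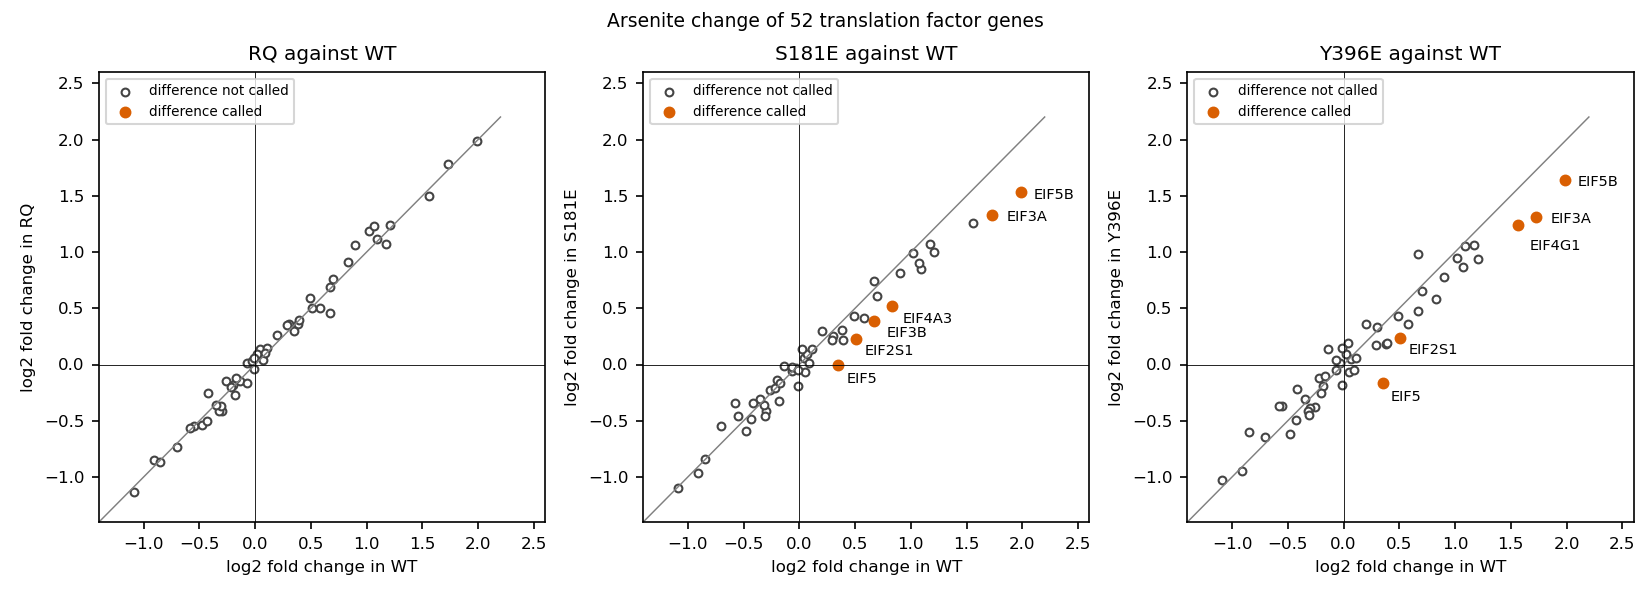
Log2 fold change of arsenite against control in RQ, S181E or Y396E cells (vertical axis, 1 panel each) against that in WT cells (horizontal axis) for the 52 tested members, with the line of equal change. Filled points passed the test of the difference from WT (none of the RQ panel, 6 of the S181E panel, 5 of the Y396E panel), and all of them lie under the line, with EIF5 at 0.00 in S181E and -0.16 in Y396E against 0.35 in WT.

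Other genes of the pathway gave a similar mixture in arsenite with WT, where 36.3% of all tested genes were called higher and 35.9% lower. Of 16 tested kinases, phosphatase subunits and binding regulators, 6 rose and 3 fell, with PPP1R15A, the stress-induced subunit that dephosphorylates eIF2, the largest rise (2.22 ± 0.05, adjusted p = 2.44e-21) and RPS6KB2, a kinase of ribosomal protein S6, the largest fall (-0.62 ± 0.07). Of 9 termination, recycling and re-initiation factors, 5 rose and 1 fell, from DHX29 (1.78 ± 0.09), a helicase of structured leaders, to DENR (-0.53 ± 0.05), a re-initiation factor. Of 11 genes that modify elongation factors, 3 rose and 4 fell, from DPH1 (0.63) to DPH3 (-0.82), both of the diphthamide pathway of eEF2. Of 7 mitochondrial translation factors 4 rose and 2 fell, from GFM1 (1.03), a mitochondrial elongation factor, to MTRF1L (-0.55), a release factor. In S181E control cells 5 of the 9 termination, recycling and re-initiation factors were higher than in WT and 0 lower by edgeR (median 0.30), where 15.7% of all genes were higher and 15.4% lower, and 7 of the 9 had an unadjusted p under 0.05. In Y396E control cells 5 were higher and 0 lower (median 0.29), against 14.5% and 14.2% of all genes. The other groups held fewer calls, with 1 of the 16 kinases, phosphatase subunits and binding regulators higher in each mutant, 1 (S181E) and 2 (Y396E) of the 11 modifiers higher, and 0 of the 7 mitochondrial factors called in either by edgeR, of which 3 had an unadjusted p under 0.05 in each mutant. In RQ control cells 0 genes of these 4 groups passed by edgeR, with 3 regulators, 1 termination factor, 2 modifiers and 1 mitochondrial factor at an unadjusted p under 0.05.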

How the data were processed

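The authors aligned single reads to hg38 with STAR 2.7.11b and counted exon reads with featureCounts (Subread 2.0.6, strand setting 2, GENCODE 46 per the file headers), and deposited these raw counts. Reads on several genes or places were not counted. Symbols came from GENCODE 44, which held 62541 of the 63086 identifiers (99.1%). Immunoprecipitation libraries were not analysed here.

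Protein-coding genes above 10 CPM in at least 12 of 24 libraries (9099) were fitted with 1 mean per group (16 residual degrees of freedom, TMM factors 0.865 to 1.086) by edgeR 4.0.16 under R 4.3.3, with its quasi-likelihood test and Benjamini-Hochberg adjustment over all 9099 genes. The SE is the log2 fold change over the square root of F. The fit was tested on simulated data. No 2 libraries held identical counts, and replicates differed by more than counting noise (chi-square per gene 2.67 to 60.1 over 24 pairs). Parental libraries stayed out of the fit. Replicate numbers paired WT with RQ by the correlation of same-numbered libraries (all 3 pairs over 0.1 in control and in arsenite), which is a hint from the data, and no other groups compared.

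The members, role groups and pathway lists were chosen with earlier results of these data known. By rule, library values are given for the 5 largest called rises and falls in arsenite in WT, the 3 largest in each other comparison, members of the chromosome 8 stretch, EIF2A, PABPC1, PABPC4 and the most abundant member of each role, and other members were named with their role group. Alternatives were DESeq2 1.42.0, its size factors, library totals, no filter, only the groups compared, the replicate block, and leaving out each library.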

Additional observations from a re-analysis of the deposited data

Results flagged for a closer look

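The members listed here were picked out because their arsenite response differed between populations by the interaction test in edgeR. In S181E against WT these were EIF5B (-0.46), EIF3A (-0.39), EIF5 (-0.35), EIF4A3 (-0.32), EIF3B (-0.28) and EIF2S1 (-0.28). In Y396E against WT they were EIF5 (-0.51), EIF3A (-0.42), EIF5B (-0.35), EIF4G1 (-0.32) and EIF2S1 (-0.27). Values are differences of log2 fold changes, mutant minus WT, and both mutants share the WT libraries. Groups of 3 libraries were not searched for outlying samples.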

How the results depend on the processing

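Over 183 called values of members and 6 alternatives, 1062 of 1098 values kept their direction and call, 36 lost the call and 0 reversed. Scaling by library totals alone gave 29 members called in S181E control cells, 25 in Y396E control cells, 1 in RQ control cells, 0 in RQ arsenite cells, and 12 for the response in each of S181E and Y396E. Without the low-count filter, and with only the groups compared in the fit, RQ control cells gave 1, and with only the groups compared the Y396E response gave 2. Leaving out each of 24 libraries in turn kept 4314 of 4392 values, with 78 losing the call and 0 reversed. The counts then ranged over 34 to 35 (WT), 33 to 35 (RQ), 31 to 32 (S181E) and 30 to 31 (Y396E) for arsenite, 0 to 2 (RQ), 10 to 17 (S181E) and 9 to 14 (Y396E) for mutants in control, 2 to 3, 3 to 5 and 5 to 9 for mutants in arsenite, and 0 to 0, 3 to 8 and 2 to 8 for responses. Same-numbered libraries deviated together in WT and RQ (r 0.3 to 0.535 over 3 pairs in control and 0.149 to 0.155 in arsenite), and the replicate block changed no call of RQ against WT. In the other comparisons at least 1 pair had r of 0.1 or less, and the labels link the samples by number only. Over all groups the mean r was 0.093 for the same number (lowest -0.049) and -0.046 for different numbers. By average r, 23 of 24 libraries were closest to their own number, and the main fit holds no term for it. With the replicate block the counts were 34, 34, 31 and 30 for arsenite, 2, 14 and 13 in control, 3, 5 and 6 in arsenite, and 0, 7 and 5 for responses, and 1 call was lost (PABPC4 in RQ, 0.26). DESeq2 gave 35, 35, 32, 30, 2, 14, 12, 3, 5, 6, 0, 6 and 4 in the same order. The cause of these changes was not tested. With 3 libraries per group and 1 population per mutant, small differences were not resolved, and p-values measure the spread between dishes only.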

Other observations

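The parental control library stands outside the range of the 12 control libraries with mCherry-IGF2BP1 for 17 of the 52 tested members. It was below all 12 for EIF2A, EIF2D, EIF2S3, EIF3L, EIF4A2, EIF4B, EEF1A1, EEF1B2 and EEF2, and above all 12 for EIF1AD, EIF1AX, EIF2B1, EIF4EBP2, EIF4ENIF1, EIF5A, EEF1E1 and PABPC4. EIF2A had 69.8 CPM in the parental control and 96.9 CPM in the parental arsenite library, against 137 to 147 CPM in the 12 control libraries. EEF2 had 1377 and 3658 CPM in the parental pair, and EEF1A1 had 4846 and 5757 CPM. With 1 library per treatment these differences have no replicate check. The share of all tested genes outside that range was not counted, so the 17 cannot be read as particular to these members. Parental CPM were scaled in a TMM run of all 26 libraries and the other CPM in a run of the 24, so the values are not on exactly the same scale.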
